A study of Mus musculus with 6 samples.

Results

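Genes of the blood vessel wall were followed in the hippocampus of 6-month-old 5xFAD and wild-type (WT) mice. The set held 38 of the 18263 genes of the count table, taken by gene symbol from a list of established markers. Of these, 28 mark endothelial cells and the blood-brain barrier and 10 mark the mural cells around them, namely 7 pericyte genes and 3 contractile genes of smooth muscle. The transgenes of 5xFAD mice, which include human APP with the Swedish, Florida and London mutations, are driven by the neuronal Thy1 promoter, and the mice accumulate amyloid in the brain. WT mice carry no transgene. From each genotype 3 mice were used, and 3 libraries were made from total RNA after removal of rRNA.

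The endothelium of brain capillaries differs from that of other organs. Its cells are sealed by tight junctions, take up little by vesicles and carry dedicated transporters and efflux pumps on their surface. Pericytes are embedded in the capillary wall, and smooth muscle cells encircle arterioles and contract to set blood flow. Together with the end-feet of astrocytes these cells form the neurovascular unit, which is studied in Alzheimer's disease because amyloid is also cleared across the vessel wall and can be deposited in it. The comparison described here asks whether the mRNA of this wall differed between 5xFAD and WT hippocampus, and whether endothelial and mural genes behaved alike.

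Total counts were between 8.45 and 12.6 M in the 5xFAD libraries and between 8.7 and 12.1 M in the WT libraries. Values below are CPM, counts per M counts of the scaled library size. Thy1, the gene whose promoter drives the transgenes, had 2697, 2417 and 2654 CPM in 5xFAD libraries, against 623, 637 and 362 CPM in WT libraries, so the libraries were split as their genotype labels say. All 10 listed markers of hippocampal neurons were tested and present, with a summed level of 14438 to 15512 CPM in 5xFAD libraries and 8816 to 17338 CPM in WT libraries.

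Library WT 3 stood apart from the other 5. Its Spearman correlation with them across genes was 0.916 to 0.931, against 0.976 to 0.986 among the others, and its deviation from them followed the GC content of the transcripts (Spearman -0.616 across genes, which are not independent replicates). The fitted log2 differences of the members tested with all libraries are therefore also given without WT 3. So are the differences given for genes outside the set. Library WT 3 lay outside the range of the other 5 libraries for 30 of the 36 members tested, a count that was not made over all genes.

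None of the 36 members tested passed an adjusted p of 0.05 in edgeR's quasi-likelihood test over all 12952 genes, where 0.656% of genes passed, every one of them higher in 5xFAD. The adjusted p of the members lay between 0.771 and 0.98. At an unadjusted p of 0.05, 1 of 36 passed (Fli1), or 2.78%, against 6.3% of all genes. None met the rule in the methods of the study, an unadjusted p under 0.05 with at least a 2-fold difference, which 3.15% of all genes met. DESeq2 called 0 members, against 1.3% of all genes, and had 1 at an unadjusted p under 0.05, where 5.83% of all genes passed. Limma-voom with library weights called 0, against 3.17% of all genes, and had 6 at an unadjusted p under 0.05, where 14% of all genes passed. Without WT 3, edgeR called 0 of 37 members against 2.89% of all genes, and 2 (Vwf and Fli1) had an unadjusted p under 0.05, where 14.1% of all genes had one.

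The differences were small in both compartments. The median log2 difference, 5xFAD minus WT, was 0.06 over the 27 endothelial genes tested and 0.12 over the 9 mural genes tested, beside -0.02 over all genes tested. Without WT 3 these medians were 0.13, 0.08 and 0.01. A GC correction gave medians of -0.01, -0.07 and -0.07. A positive difference was found with all libraries for 22 of 36 members (61.1%), where 47.7% of all genes had one. This count was 26 of 37 without WT 3, 18 of 36 without 5xFAD 3 and 16 of 36 with GC correction. The share over all genes was not counted in these other fits. The 95% interval of the difference lay within a 2-fold change in either direction for 17 of 36 members (47.2%), against 53.3% of all genes. Without WT 3 this held for 27 of 37 members (73%), against 70.3% of all genes. For the remaining members a 2-fold difference lay within the interval. Since whole tissue was sequenced, fewer vascular cells and less mRNA per vascular cell cannot be told apart.

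**Figure D1:**
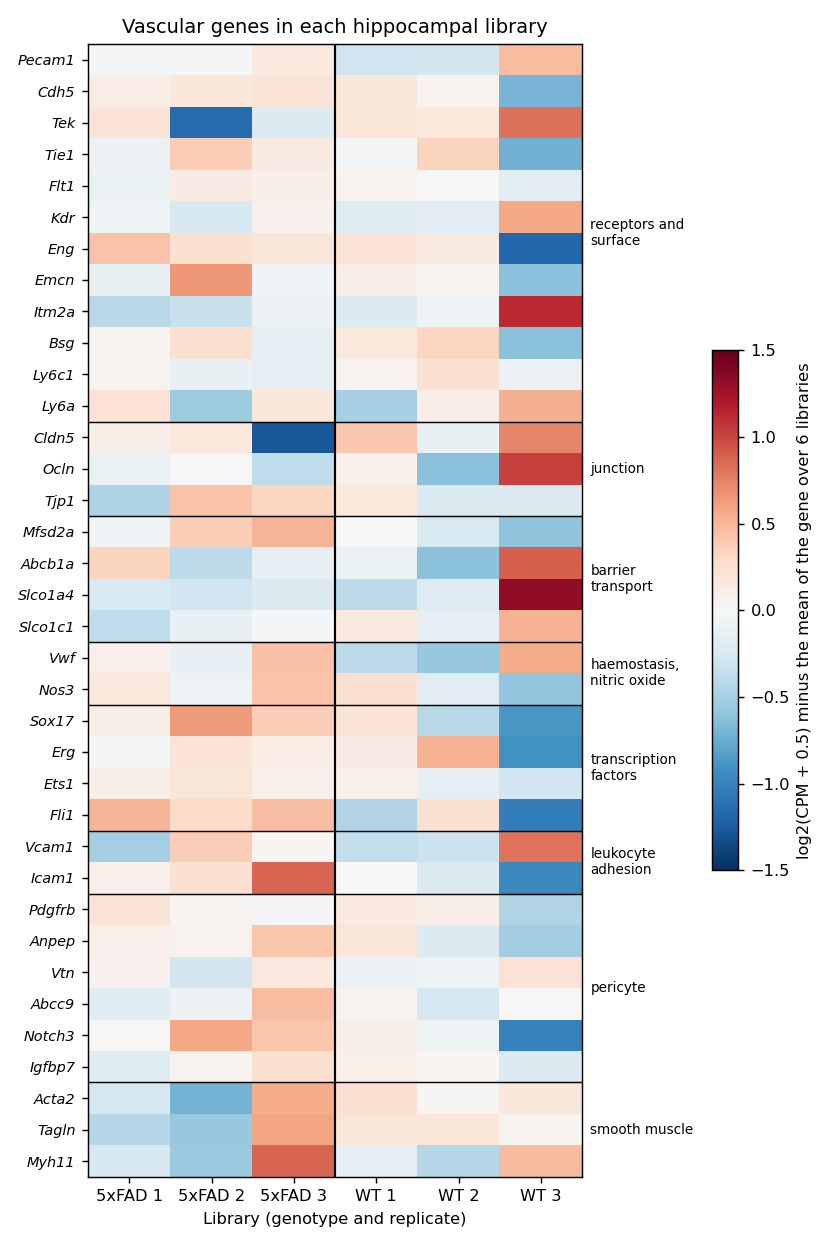
Levels of the 36 tested vascular genes (rows, grouped by role) in the 3 5xFAD libraries (left) and the 3 WT libraries (right), as log2(CPM + 0.5) minus the mean of the gene over the 6 libraries. Red is above and blue below the mean of the gene, and the strongest colours stand in the WT 3 column and, for the smooth muscle genes, in 5xFAD 3.

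Set side by side per kilobase of exon, the members covered a wide range of levels. Bsg, which encodes basigin, an immunoglobulin-like protein of brain endothelium that other brain cells also make, was by far the most abundant, with a mean of 254 CPM per kilobase in 5xFAD and 246 CPM per kilobase in WT. The pericyte gene Vtn came next, with means of 22.7 and 23.2 CPM per kilobase in 5xFAD and WT. A further 8 genes (Eng, Igfbp7, Mfsd2a, Acta2, Cdh5, Flt1, Pdgfrb and Ly6c1) were at 5 CPM per kilobase or more in both groups. Lowest of the 36 tested members was Tjp1, with means of 0.397 CPM per kilobase in 5xFAD and 0.329 CPM per kilobase in WT.

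Esam and Higd1b did not pass the filter on low counts in the fit of all 6 libraries. Esam, an adhesion molecule of endothelial junctions, had 0, 8 and 13 counts in 5xFAD libraries and 4, 9 and 3 counts in WT libraries. Higd1b, a pericyte marker, had 6, 2 and 1 counts in 5xFAD libraries and 9, 1 and 19 counts in WT libraries. The groups overlapped for both genes. Esam passed the filter without WT 3, where its log2 difference was 0.23 with a 95% interval from -1.92 to 2.38 (adjusted p = 0.958 in edgeR), which takes in a 2-fold difference either way. Higd1b was tested in edgeR without the filter, with a log2 difference of -1.39 (adjusted p = 0.81), and in DESeq2, with one of -1.38 (adjusted p = 0.905).

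Among the 12 endothelial receptors and surface proteins, the best measured genes were level between genotypes. Flt1, which encodes VEGF receptor 1, had 97.1, 114 and 111 CPM in 5xFAD libraries, against 108, 104 and 93.7 CPM in WT libraries. Its log2 difference was 0.08 ± 0.165 (SE), and the 95% interval ran from -0.30 to 0.45, the narrowest among the members. Cdh5, the VE-cadherin that holds endothelial cells together, had 36.6, 38.1 and 38.8 CPM in 5xFAD libraries, against 38.2, 35.2 and 20.8 CPM in WT libraries. For both genes 5xFAD 1 to 3 lay close to WT 1 and WT 2, and WT 3 was the lowest of the 6 libraries. The log2 difference of Cdh5 was 0.27 in all libraries and 0.05 without WT 3.

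The differences of other surface genes also moved with that library. Eng, encoding endoglin, an auxiliary receptor for ligands of the TGF-beta family, had 57.5, 49.8 and 48.1 CPM in 5xFAD libraries, against 49.1, 46.6 and 18.5 CPM in WT libraries, and its log2 difference was 0.44 with WT 3 and 0.12 without it. Itm2a, which encodes a membrane protein enriched in brain endothelium, showed the reverse, with 5.2, 5.51 and 6.61 CPM in 5xFAD libraries, against 6.06, 6.7 and 16 CPM in WT libraries. Its log2 difference was -0.72 with WT 3 and -0.13 without it. In both genes the 5xFAD libraries overlapped WT 1 and WT 2, and WT 3 lay far below them for Eng and far above them for Itm2a.

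Tek, the receptor of the angiopoietins, had the most negative difference of all members. It had 7.31, 2.58 and 5.41 CPM in 5xFAD libraries, against 7.27, 7.16 and 11.6 CPM in WT libraries. 5xFAD 2 was the lowest library and WT 3 the highest, while 5xFAD 1 lay between WT 1 and WT 3, so the groups overlapped. Tek had a log2 difference of -0.77 ± 0.413 (adjusted p = 0.81) and -0.50 without WT 3 (adjusted p = 0.597), both from edgeR's quasi-likelihood test. Tie1, the companion receptor of Tek, averaged 12.1 ± 1.95 CPM in 5xFAD and 10.3 ± 3.71 CPM in WT (SD, n = 3 each), and its log2 difference was 0.23, and -0.01 without WT 3.

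The remaining surface genes overlapped between the groups. Kdr, encoding VEGF receptor 2, averaged 9.83 ± 1.12 CPM in 5xFAD and 11.4 ± 3.86 CPM in WT. Pecam1, the adhesion molecule CD31, averaged 10.5 ± 0.764 CPM in 5xFAD and 10.3 ± 3.47 CPM in WT. Its 5xFAD libraries (10, 10.1 and 11.4 CPM) all lay above WT 1 and WT 2 (8.22 and 8.36 CPM) and below WT 3 (14.3 CPM). Emcn, an endothelial sialomucin, averaged 4.59 ± 1.61 CPM in 5xFAD and 3.55 ± 1.02 CPM in WT. The log2 differences of Kdr, Pecam1 and Emcn were -0.21, 0.03 and 0.36, and without WT 3 they were 0.11, 0.35 and 0.15. In each of these genes the difference in means was smaller than the SD of at least one group. Bsg had 455, 523 and 402 CPM in 5xFAD libraries and 497, 556 and 288 CPM in WT libraries, with a log2 difference of 0.04, and -0.19 without WT 3. Of the Ly6 genes, which encode small lipid-anchored proteins of mouse endothelium and leukocytes, Ly6c1 averaged 9.23 ± 0.699 CPM in 5xFAD and 10.2 ± 1.17 CPM in WT, and Ly6a averaged 2.25 ± 0.735 CPM in 5xFAD and 2.49 ± 1.03 CPM in WT. The log2 differences of Ly6c1 and Ly6a were both -0.14, and without WT 3 they were -0.21 and 0.20. Of the 100-base windows of the Ly6c1 transcript, 15.3% also occur in Ly6c2, so reads of this pair may have been lost or split.

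The tight junction genes were expressed at low levels and varied between libraries. Cldn5 (chromosome 16, 18776847 to 18778262, mm10), which encodes the main claudin of the blood-brain barrier, had 5.7, 5.98 and 1.91 CPM in 5xFAD libraries, against 7.18, 4.87 and 9.15 CPM in WT libraries. 5xFAD 3 stood well below all other libraries, WT 3 was the highest, and 5xFAD 1 and 2 lay between WT 1 and WT 2. The log2 difference of Cldn5 was -0.66 ± 0.465 (adjusted p = 0.812), -0.44 without WT 3, -0.28 without 5xFAD 3 and -1.09 after GC correction, and no setting called it. The mean level of Cldn5 was 3.2 CPM per kilobase in 5xFAD and 4.99 CPM per kilobase in WT, below that of Cdh5, at 8.99 CPM per kilobase in 5xFAD and 7.47 CPM per kilobase in WT.

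Ocln, encoding occludin, a membrane-spanning protein of the same junctions, had 8.18, 8.79 and 6.61 CPM in 5xFAD libraries, against 9.26, 5.51 and 18.4 CPM in WT libraries. All 3 5xFAD libraries lay between WT 2 and WT 1, and the log2 difference of -0.49 became 0.08 without WT 3. Tjp1, the scaffold protein ZO-1, averaged 3.1 ± 1.09 CPM in 5xFAD and 2.57 ± 0.476 CPM in WT, with overlapping groups. Its log2 difference was 0.28, and 0.21 without WT 3.

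Of the 4 transport genes of the barrier, Mfsd2a was the one with a positive difference. Mfsd2a, the lipid transporter that also keeps vesicle traffic through brain endothelium low, had 15.9, 21.7 and 23.9 CPM in 5xFAD libraries, against 16.7, 14.1 and 10.8 CPM in WT libraries. 5xFAD 2 and 3 lay above every WT library and 5xFAD 1 below WT 1. The fitted difference was 0.56 ± 0.263 (adjusted p = 0.807) and 0.42 without WT 3 (adjusted p = 0.373), and kept a positive sign in every setting, from 0.38 to 0.72.

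Slco1a4, an organic anion transporter of brain capillaries, had 8.67, 8.32 and 8.76 CPM in 5xFAD libraries, against 7.7, 8.91 and 26.6 CPM in WT libraries. The 5xFAD libraries lay within a narrow range between WT 1 and WT 2, and WT 3 stood at 3.2 times the mean of WT 1 and WT 2, the highest such ratio among the members tested. Slco1a4 had a log2 difference of -0.74 with WT 3 and 0.05 without it. Abcb1a, the efflux pump P-glycoprotein, had 20.3, 12.1 and 14.7 CPM in 5xFAD libraries, against 14.9, 10.3 and 30.2 CPM in WT libraries. The difference of Abcb1a was -0.23 with WT 3 and 0.32 without it. The transcript shares 7.72% of its 100-base windows with Abcb1b or Abcb4, and 10.1% of its exon bases overlap a gene model on the opposite strand. Slco1c1, the thyroid hormone transporter, averaged 14.6 ± 1.98 CPM in 5xFAD and 18.8 ± 4.51 CPM in WT.

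**Figure D2:**
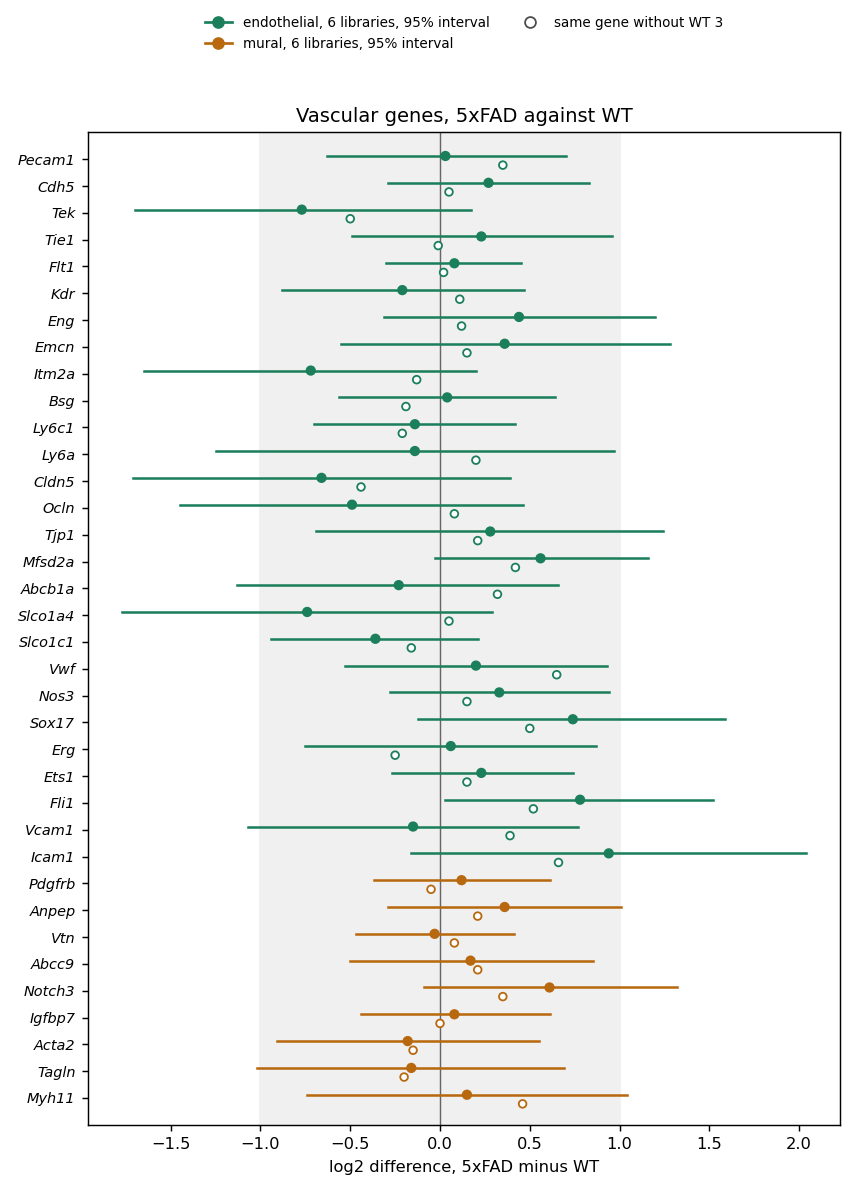
Fitted log2 difference, 5xFAD minus WT, of the 36 tested members (filled points) with the 95% interval from all 6 libraries, endothelial genes in green and mural genes in orange, and the estimate of the same fit without WT 3 (open points). The grey band marks a difference of less than 2-fold, and Fli1 is the sole gene whose 95% interval, 0.03 to 1.52, leaves out 0.

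Of the genes for haemostasis and nitric oxide, Vwf was the one that moved most when WT 3 was left out. Vwf (chromosome 6, 125546774 to 125686679, mm10) encodes von Willebrand factor, the platelet-binding protein stored in endothelial cells, and had 31.6, 27.5 and 40.8 CPM in 5xFAD libraries, against 22.7, 20.1 and 44.4 CPM in WT libraries. All 3 5xFAD libraries lay above WT 1 and WT 2, and all 3 lay below WT 3. In all libraries the log2 difference was 0.20 ± 0.321 (adjusted p = 0.89), and it was 0.65 ± 0.178 without WT 3 (adjusted p = 0.0632), the lowest adjusted p of any member in any setting. In limma-voom with library weights it was 0.62 (adjusted p = 0.0723), and after GC correction -0.16. Nos3, the endothelial nitric oxide synthase, averaged 23.8 ± 4.29 CPM in 5xFAD and 19 ± 5.44 CPM in WT. Its log2 difference was 0.33, and 0.15 without WT 3. For Nos3, 32.3% of exon bases overlap genes on the opposite strand, Atg9b among them.

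With all libraries the transcription factors had the highest median log2 difference of the gene groups, 0.48, with 4 of 4 positive. Without WT 3 their median was 0.33, with 3 of 4 positive. That was below the medians of leukocyte adhesion (0.52) and of haemostasis and nitric oxide (0.40), each of 2 genes. Fli1 (chromosome 9, 32422204 to 32542861, mm10), an ETS factor of endothelial and blood lineage cells, had 21.4, 18.2 and 20.6 CPM in 5xFAD libraries, against 10.7, 17.5 and 6.95 CPM in WT libraries. The 3 5xFAD libraries lay above all WT libraries, with 5xFAD 2 and WT 2 close to each other. The log2 difference was 0.78 ± 0.329, 1.71-fold, with an unadjusted p of 0.0427 and an adjusted p of 0.771 in edgeR's quasi-likelihood test. Without WT 3 it was 0.52 (adjusted p = 0.268), and over the other settings the adjusted p was never below 0.125.

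Ets1, another ETS factor, lies next to Fli1 on chromosome 9 (32636221 to 32757820, mm10) and had 15.1, 16.1 and 15 CPM in 5xFAD libraries, against 15, 12.9 and 11.5 CPM in WT libraries. 5xFAD 3 and WT 1 were equal to the digits given, with 5xFAD 3 just above, and the log2 difference was 0.23 ± 0.223, and 0.15 without WT 3. Erg, the ETS factor most restricted to endothelium among these, averaged 13 ± 1.04 CPM in 5xFAD and 12.4 ± 5.77 CPM in WT, and its log2 difference was 0.06 with WT 3 and -0.25 without it. Sox17, an arterial transcription factor, had 5.82, 8.79 and 7.16 CPM in 5xFAD libraries, against 6.32, 3.95 and 2.76 CPM in WT libraries. 5xFAD 1 lay below WT 1, and the log2 difference was 0.74 ± 0.379 (adjusted p = 0.81), and 0.50 without WT 3.

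ETS factors such as Fli1, Ets1 and Erg bind a GGAA core, and many endothelial promoters hold such sites. The windows of 250 bases before to 50 bases after the annotated starts (RefSeq, GRCm38.p6) were searched for AGGAAGT on both strands. Of the 23 members with a window, 4 held it (17.4%), all of them among the 17 endothelial genes (23.5%), where 10.7% of all 27025 genes with a window held it. None of the 23 held the strict form of the CArG box, a site of serum response factor, which 1.81% of all genes held. That form is CCWWWWWWGG, with W for A or T, and sites that depart from it were not searched for. Of the 3 contractile genes Acta2 alone was among the 23. A match describes the letters only. The 4 stretches of 80 bases are shown on the strand of the gene because they are the endothelial promoters that carry this site, which stands in capitals and is written as ACTTCCT where it lies on the opposite strand.
Flt1 (chr5:147726022-147726101, minus strand, first base of the site at -53): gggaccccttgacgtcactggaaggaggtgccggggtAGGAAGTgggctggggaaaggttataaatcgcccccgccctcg
Eng (chr2:32646505-32646584, plus strand, -53): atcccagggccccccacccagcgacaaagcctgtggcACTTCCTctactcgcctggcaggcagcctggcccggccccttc
Ly6c1 (chr15:75048747-75048826, minus strand, -126): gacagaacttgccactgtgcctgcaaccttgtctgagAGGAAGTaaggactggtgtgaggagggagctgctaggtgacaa
Slco1c1 (chr6:141524188-141524267, plus strand, -129): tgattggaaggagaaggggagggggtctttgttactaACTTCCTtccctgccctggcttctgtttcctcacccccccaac

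The 4 genes with this site did not move together. Their log2 differences were 0.08 for Flt1, 0.44 for Eng, -0.14 for Ly6c1 and -0.36 for Slco1c1, and without WT 3 they were 0.02, 0.12, -0.21 and -0.16 in the same order. None of the 4 was called in any setting.

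The adhesion molecules that bind leukocytes were low in both genotypes. Icam1 (chromosome 9, 21015985 to 21028817, mm10), which binds leukocyte integrins and is also made by microglia and astrocytes, had 2.48, 2.81 and 4.7 CPM in 5xFAD libraries, against 2.34, 1.93 and 0.953 CPM in WT libraries. Every 5xFAD library lay above every WT library, though 5xFAD 1 and WT 1 were close. Icam1 had a log2 difference of 0.94 ± 0.488 (adjusted p = 0.81) and 0.66 ± 0.475 without WT 3 (adjusted p = 0.591), and its counts were as low as 10 in WT 3. Vcam1, the corresponding ligand of activated endothelium, had 6.07, 11.6 and 9.07 CPM in 5xFAD libraries, against 6.75, 6.98 and 16 CPM in WT libraries. For Vcam1 the difference was -0.15 with WT 3 and 0.39 without it.

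Fli1, Ets1 and Icam1 were the 3 members whose groups did not overlap with 5xFAD higher (8.33% of 36), where 8.42% of all genes showed this pattern. No member had all 5xFAD libraries below all WT libraries, where 6.35% of all genes did. Cells other than endothelium also make these 3 mRNAs, and their markers moved with genotype. More of these markers were called without WT 3, where 2.89% of all genes were called, than with it, where 0.656% were. The summed level of 10 microglial markers was 592 to 660.4 CPM in 5xFAD libraries and 181 to 271 CPM in WT libraries, with 2 of 9 tested called, and 7 called without WT 3. That of 8 markers of reactive astrocytes was 1759 to 2095 CPM in 5xFAD libraries and 407 to 430.1 CPM in WT libraries, with 3 of 7 tested called, and 5 called without WT 3. Of 8 leukocyte markers Ptprc alone passed the filter and was called, Ly6g and S100a8 were at 0 in all libraries, and the sum was 7.62 to 10.3 CPM in 5xFAD libraries and 1.93 to 2.57 CPM in WT libraries. No marker of the microglial or reactive astrocyte lists was at 0 throughout. The part of these cells in the levels of Fli1, Ets1 and Icam1 was not tested.

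Pericyte genes overlapped between the genotypes. Of the 6 tested, 5 had a positive difference, where 47.7% of all genes had one. Their median was 0.15, and 0.14 without WT 3. With GC correction 3 of 6 were positive, and likewise without 5xFAD 3, with a median of 0.07 in each. Pdgfrb, the PDGF receptor by which endothelium recruits pericytes, had 43.1, 38.3 and 37.3 CPM in 5xFAD libraries, against 41.8, 40.1 and 27.4 CPM in WT libraries. Its log2 difference was 0.12 ± 0.215, and -0.05 without WT 3, with a 95% interval from -0.33 to 0.24. Vtn, encoding vitronectin, a matrix protein that pericytes secrete, had 48.6, 38.3 and 51.3 CPM in 5xFAD libraries, against 43.4, 44 and 53.9 CPM in WT libraries. The libraries of both genotypes were interleaved in both genes, and Vtn had a log2 difference of -0.03 ± 0.196, and 0.08 without WT 3.

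Notch3, the mural Notch receptor, had the largest difference among the mural genes. It had 28.7, 43.3 and 38.8 CPM in 5xFAD libraries, against 31.1, 27.4 and 14 CPM in WT libraries. 5xFAD 2 and 3 lay above all WT libraries and 5xFAD 1 between WT 1 and WT 2. The log2 difference was 0.61 ± 0.311 (adjusted p = 0.81), and 0.35 without WT 3 (adjusted p = 0.39). Anpep, the surface peptidase CD13, averaged 11 ± 1.68 CPM in 5xFAD and 8.61 ± 2.23 CPM in WT. Abcc9, the SUR2 subunit of potassium channels, averaged 8.2 ± 2.22 CPM in 5xFAD and 7.31 ± 0.856 CPM in WT. Igfbp7 encodes a secreted protein of the vessel wall that endothelial cells also make. It averaged 15.4 ± 2.23 CPM in 5xFAD and 14.6 ± 1.65 CPM in WT. The log2 differences of Anpep, Abcc9 and Igfbp7 were 0.36, 0.17 and 0.08, and without WT 3 they were 0.21, 0.21 and 0.0. The 95% intervals of 4 of the 6 pericyte genes (66.7%) lay within a 2-fold change in either direction, against 53.3% of all genes, and without WT 3 those of 6 of 6 did, against 70.3% of all genes.

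The contractile genes of smooth muscle varied more among the 5xFAD mice than between genotypes. Acta2, smooth muscle actin, had 16.9, 12.3 and 30.2 CPM in 5xFAD libraries, against 24, 20.6 and 23.1 CPM in WT libraries. Myh11, smooth muscle myosin heavy chain, had 27, 21.5 and 59.1 CPM in 5xFAD libraries, against 29.2, 23.5 and 44.6 CPM in WT libraries. Tagln, the actin-binding protein SM22, had 4.83, 4.34 and 10.3 CPM in 5xFAD libraries, against 7.61, 7.62 and 6.86 CPM in WT libraries. For all 3 genes 5xFAD 3 was the highest of the 6 libraries and 5xFAD 2 the lowest, and 5xFAD 3 stood at 2.07 to 2.44 times the mean of 5xFAD 1 and 2. For Tagln, 67.9% of exon bases overlap genes on the opposite strand, Pcsk7 among them.

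The fitted log2 differences were -0.18 ± 0.323 for Acta2, -0.16 ± 0.377 for Tagln and 0.15 ± 0.393 for Myh11. Without WT 3 they were -0.15, -0.20 and 0.46 in the same order. Without 5xFAD 3 they were -0.63, -0.69 and -0.43, with no call in any of these fits (lowest adjusted p over the 3 genes without that library, 0.969). The 9 mural genes tested had a median log2 difference of 0.12 with 5xFAD 3 and -0.08 without it.

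To ask whether the high level in 5xFAD 3 extended beyond the set, 6 further contractile genes (Myl9, Mylk, Tpm2, Lmod1, Des and Myocd) were chosen after these values were seen. In all of them but Myocd 5xFAD 3 was the highest of all libraries, and in 6 of 6 it was the highest 5xFAD library, at 1.3 to 2.22 times the mean of the other 5xFAD libraries. Cnn1, also looked up, was too low to be tested. Of the 6 pericyte genes tested, 3 had their highest level in 5xFAD 3, at 0.917 to 1.55 times the mean of 5xFAD 1 and 2 over the 6 genes, and of the 27 endothelial genes 4 did, with a median ratio of 1.04.

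Markers of tissue that adjoins the hippocampus, and of macrophages that lie along vessels, also differed between libraries. The summed level of 10 genes of fibroblasts and meninges was 612, 647 and 828 CPM in 5xFAD libraries and 605, 653 and 878 CPM in WT libraries, so that it was high in 5xFAD 3 and WT 3. That of 7 choroid plexus genes was 739, 4389 and 1809 CPM in 5xFAD libraries and 1273, 2322 and 406 CPM in WT libraries, with the highest level in 5xFAD 2. The 8 genes of perivascular macrophages summed to 28.6, 28.1 and 39.2 CPM in 5xFAD libraries and 31.8, 30.4 and 40.9 CPM in WT libraries, again highest in 5xFAD 3 and WT 3. No gene of these 3 lists was at 0 in all libraries and none was called. The part of such tissue or macrophages in the smooth muscle values was not tested. Erythrocyte genes summed to 49.3, 4.57 and 4.22 CPM in 5xFAD libraries and 14.6, 18.6 and 13.3 CPM in WT libraries. The 6 astrocyte genes summed to 5091 to 5960.5 CPM in 5xFAD libraries and 5523 to 5603 CPM in WT libraries. None of the 6 was called with all libraries. Without WT 3, where 2.89% of all genes were called, 1 was, Aqp4, the water channel of the end-feet. In edgeR its log2 difference was 0.38 with all libraries (adjusted p = 0.818) and 0.86 without WT 3 (adjusted p = 0.000376).

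**Figure D3:**
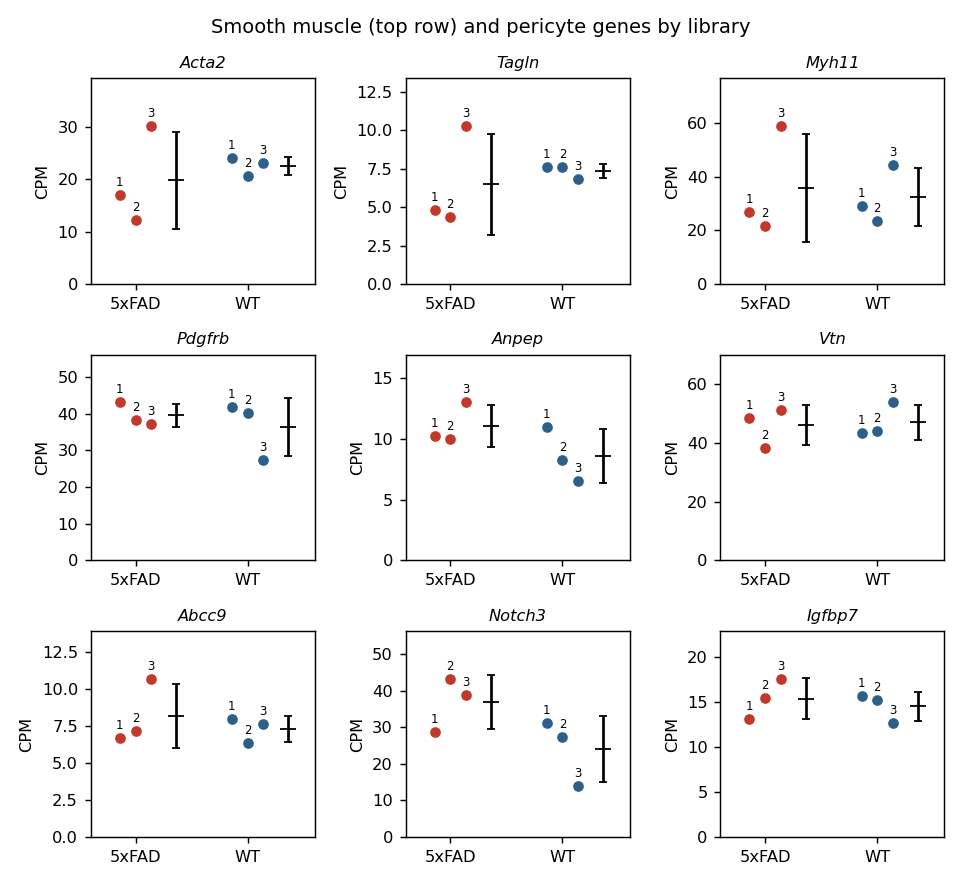
CPM of the 3 smooth muscle genes (top row) and the 6 tested pericyte genes (lower rows) in each 5xFAD library (red, left) and WT library (blue, right), numbered by replicate, with the mean and SD of each group beside the points (n = 3 each). 5xFAD 3 is the highest point for Acta2, Tagln and Myh11, at 30.2, 10.3 and 59.1 CPM. It is also the highest for Anpep, Abcc9 and Igfbp7, at 13, 10.7 and 17.6 CPM, and not for Pdgfrb, Vtn and Notch3.

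Taken library by library, neither compartment separated the genotypes. The median over the 27 endothelial genes of the deviation in log2(CPM + 0.5) from the mean of each gene was 0.04, 0.16 and 0.09 in 5xFAD libraries and 0.05, -0.14 and -0.15 in WT libraries. WT 1 lay above 5xFAD 1, so the groups overlapped. For the 6 pericyte genes the medians were 0.03, 0.04 and 0.32 in 5xFAD libraries and 0.09, -0.07 and -0.34 in WT libraries. For the 3 smooth muscle genes they were -0.27, -0.57 and 0.60 in 5xFAD libraries and 0.18, 0.01 and 0.17 in WT libraries, the widest spread within 5xFAD of the 3 groups. A median of 3 genes varies more readily than one of 27 or 6, so these spreads are not measured alike.

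The place of WT 3 among the members followed base composition. Across the 36 genes the Spearman correlation between GC content and the log2 ratio of WT 3 to the mean of WT 1 and 2 was -0.511, against 0.15 for the ratio of WT 1 to WT 2. Over the 12877 tested genes with a GC content the first of these correlations was -0.601. Such points share the same libraries and are a description across genes. Of the 7 members under 45% GC, 5 were higher in WT 3 than in the mean of WT 1 and 2, with a median ratio of 2.33, and the exceptions were Emcn and Fli1. Of the 10 members at 55% GC or more, 7 were lower, with a median ratio of 0.591, and the exceptions were Vwf, Vtn and Cldn5. With WT 3 in the fit, Slco1a4 (40.3% GC) and Ocln (42% GC) had log2 differences of -0.74 and -0.49, and Eng (57.4% GC) and Notch3 (59.6% GC) had differences of 0.44 and 0.61. Without WT 3 the differences of these 4 genes were 0.05, 0.08, 0.12 and 0.35 in the same order.

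**Figure D4:**
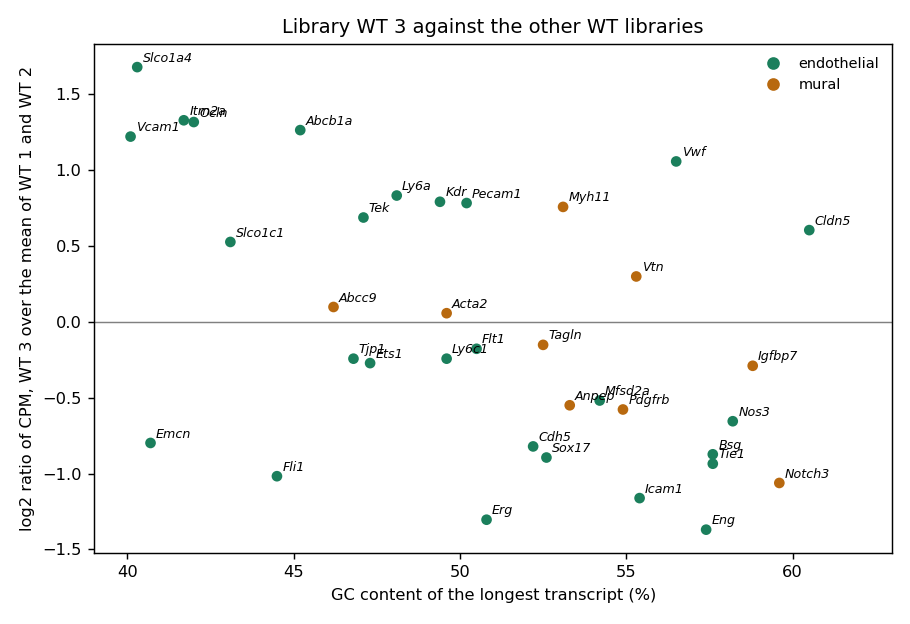
Log2 ratio of the CPM in WT 3 to the mean of WT 1 and WT 2 against the GC content (percent) of the longest transcript, 1 point per tested member, endothelial genes in green and mural genes in orange. Points fall toward the right (Spearman -0.511 over 36 genes), with Vwf and Cldn5 above and Emcn and Fli1 below the trend.

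Other genes of the same vessels were read from 7 lists that hold none of the members. These held 110 genes, of which 108 were found in the table, 99 were tested and 1 was called, Tgfbr2 (1.01% of 99, against 0.656% of all genes). Ager and Sele were not analysed here. A positive difference was found with all libraries for 63 of 99 genes (63.6%), against 47.7% of all genes. It was not counted without WT 3 or with GC correction. By list, 0 of 11 genes of VEGF and angiopoietin signalling were called, 0 of 17 of Wnt signalling and barrier induction, 1 of 13 of Notch and endoglin pathways, 0 of 13 further junction genes, 0 of 14 further transporters, 0 of 16 further endothelial surface genes and 0 of 15 further mural genes. In edgeR 8 of the 99 had an unadjusted p under 0.05, where 6.3% of all genes did. The groups did not overlap for 13 of the 99 with 5xFAD higher and for 4 with 5xFAD lower. Of all genes, 8.42% and 6.35% showed these patterns. Without WT 3, 4 were called (Tgfbr2, Tgfb1, Lrp5 and Slc2a1), in a fit where 2.89% of all genes were called.

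Tgfbr2 (chromosome 9, 116084293 to 116175360, mm10), the type II receptor of TGF-beta and, beside endoglin, part of its signalling in endothelium, was higher in 5xFAD. It had 70.9, 66.7 and 76.2 CPM in 5xFAD libraries, against 30.8, 19.3 and 19.6 CPM in WT libraries. The lowest 5xFAD library lay far above the highest WT library. Its fitted difference was 1.62 ± 0.229, 3.06-fold, with a 95% interval from 1.10 to 2.13 and an adjusted p of 0.0167 in edgeR's quasi-likelihood test. The call was lost without 5xFAD 1, 5xFAD 2, 5xFAD 3 or WT 2 (adjusted p = 0.112, 0.0978, 0.146 and 0.0604), while the log2 difference stayed between 1.5 and 1.87 in every setting. Without WT 3 the log2 difference was 1.51 (adjusted p = 2.08e-05).

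Its ligand gene Tgfb1 had 44.6, 33.5 and 32.6 CPM in 5xFAD libraries, against 15.8, 15.7 and 4.38 CPM in WT libraries. The groups did not overlap, and the log2 difference was 1.62 ± 0.428 (adjusted p = 0.266), and 1.23 without WT 3 (adjusted p = 0.000326). Tgfb1 was also called by DESeq2 (adjusted p = 0.0182) and by limma-voom with library weights (adjusted p = 0.000383). Microglia make both of these mRNAs, and the microglial sum given above moved with them. The part of microglia in the levels of Tgfbr2 and Tgfb1 was not tested. In the same list Dll4, the Notch ligand of arterial and sprouting endothelium, had 2.35, 1.06 and 1.51 CPM in 5xFAD libraries, against 3.55, 3.21 and 3.62 CPM in WT libraries. All 5xFAD libraries lay below all WT libraries for Dll4. Its log2 difference was -1.08 (adjusted p = 0.723 in edgeR), and -1.05 without WT 3. The list had a median of 0.27, and of 0.01 without WT 3.

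Genes of Wnt signalling, the pathway that induces the barrier, had a median log2 difference of 0.33, with 13 of 17 positive, and of 0.17 without WT 3 and 0.10 after GC correction. Lrp5, a Wnt co-receptor, had 59.2, 65.4 and 66.1 CPM in 5xFAD libraries, against 44.9, 46.2 and 21.1 CPM in WT libraries. Lrp5 had a log2 difference of 0.77 (adjusted p = 0.651), and 0.49 without WT 3 (adjusted p = 0.0425). Apcdd1, a Wnt inhibitor made by barrier endothelium, had 62, 55.2 and 57.9 CPM in 5xFAD libraries, against 39.9, 46.2 and 20.6 CPM in WT libraries. The groups of both genes did not overlap, and Apcdd1 had a log2 difference of 0.71 (adjusted p = 0.704), and 0.44 without WT 3 (adjusted p = 0.0842).

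Among transporters, Slc2a1, the glucose transporter of the barrier, had 126, 129.7 and 148 CPM in 5xFAD libraries, against 104, 101 and 85.5 CPM in WT libraries. All 5xFAD libraries lay above all WT libraries, and the log2 difference was 0.48 ± 0.172 (adjusted p = 0.615), and 0.40 without WT 3 (adjusted p = 0.0491). Slc7a5, the large amino acid transporter, had 106, 114 and 105 CPM in 5xFAD libraries, against 90.6, 98.1 and 59.4 CPM in WT libraries, with a log2 difference of 0.39 (adjusted p = 0.81), and 0.21 without WT 3. The list had a median of 0.15 with and without WT 3. Lrp5 was called without WT 3 and in limma-voom with library weights, and Slc2a1 without WT 3, and neither in the other settings.

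The other lists held no call in edgeR with or without WT 3. Of the further junction genes (median 0.41, and 0.19 without WT 3), Cldn12 had a log2 difference of -0.74 (adjusted p = 0.622), and -0.59 without WT 3. F11r, the adhesion molecule JAM-A, had one of 0.76 with WT 3 (adjusted p = 0.807) and without it. Of the VEGF and angiopoietin list (median 0.05, and 0.14 without WT 3), Vegfb had a log2 difference of 0.33, and 0.09 without WT 3. Apln, the apelin peptide of endothelium, had one of -0.44, and -0.53 without WT 3. Of the further surface genes (median -0.03, and 0.07 without WT 3), Cd34, a sialomucin of endothelium and blood progenitors, had a log2 difference of 0.52 (adjusted p = 0.756) with no overlap, and 0.45 without WT 3. Eltd1 had one of -0.34, and -0.35 without WT 3. Of the further mural genes (median 0.20, and 0.07 without WT 3), Tpm2, a muscle tropomyosin, had a log2 difference of 0.64, and 0.79 without WT 3. Cspg4, the proteoglycan NG2 of pericytes and oligodendrocyte precursors, had one of 0.49, and 0.24 without WT 3.

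**Figure D5:**
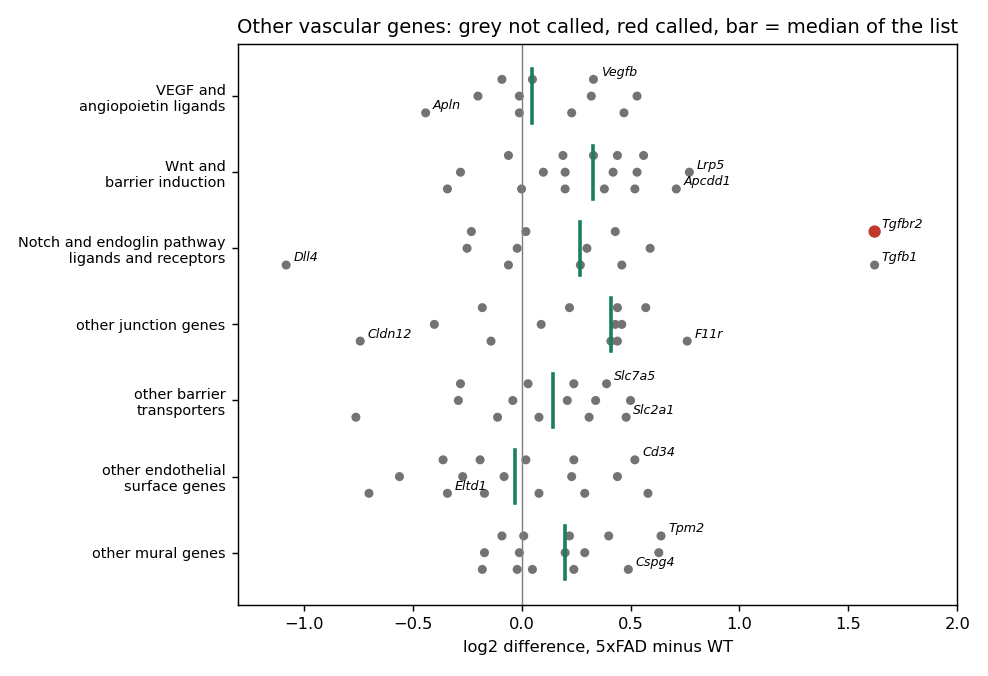
Fitted log2 difference, 5xFAD minus WT, of the 99 tested genes in the 7 lists of other vascular genes, 1 point per gene, with the called gene in red and the median of each list as a green bar. Tgfbr2 and Tgfb1 stand apart at 1.62, and the other named genes lie between -1.08 and 0.77.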

How the data were processed

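Raw counts, one value per gene and library, were taken from the table the authors deposited for 6 hippocampal libraries (3 5xFAD, 3 WT). The submitters' processing notes list cutadapt 1.9.3, HISAT2 2.0.4, HTSeq 0.9.1 and edgeR 3.16.5 with mm10. Neither the annotation release nor the strand setting is given in the sources used here. Overlapping genes on opposite strands therefore cannot be told apart. The methods describe perfusion with saline beside mice younger than these, and whether the 6-month mice were perfused is not given in the sources used here. The authors' normalised log2 columns were not used.

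Groups came from the labels. Genes were filtered with filterByExpr (minimum count 10; 12952 kept, 99.89% of counts), scaled by TMM and tested with the quasi-likelihood test of edgeR 4.0.16 in R 4.3.3, without covariates, with Benjamini-Hochberg adjustment over all genes. SE is the absolute log2 difference over the square root of F, and 95% intervals rest on it. Alternatives were RLE factors, DESeq2 1.42.0, limma 3.58.1 (voom with library weights), no filter, a GC spline, a replicate block and leaving out each library. Gene positions, exon lengths and GC content came from GENCODE M21 (GRCm38). Libraries of a group differed by 6.95 to 125 in chi-square per degree of freedom, so none was a copy.

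Members and lists were chosen with earlier results of these data known. Named were all 38 members and, from each list of other vascular genes, called genes and the 2 others with the smallest p. For lists of other cells the summed level was given. Total counts of 8.45 to 12.6 M set the precision. Promoters of Bsg, Cdh5, Esam, Ets1, Fli1, Higd1b, Ly6a, Myh11, Nos3, Pdgfrb, Pecam1, Sox17, Tagln, Vcam1 and Vwf were not analysed here.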

Additional observations from a re-analysis of the deposited data

How the results depend on the processing

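No vascular member was called in the 13 alternatives. In these, and with Igfbp7 counted as endothelial, the endothelial median (0.06 as reported) lay between -0.01 and 0.13. It was negative with GC correction and no block. The mural median (0.12 as reported) lay between -0.10 and 0.18. It was negative with GC correction (-0.07), with block and GC correction (-0.10) and without 5xFAD 3 (-0.08). The SD of the library medians within groups was 0.0919 for the 27 endothelial and 0.236 for the 9 mural genes, the latter with 5xFAD 3 included. The numbers of genes differ, so these SDs are not measured alike. Of 36 members, 18 kept the sign of their difference in every setting. Signs that turned were of genes without a call. With limma-voom and library weights the log2 difference was 0.10 for Kdr, -0.17 for Bsg, 0.24 for Ly6a, 0.19 for Abcb1a, 0.03 for Slco1a4, -0.16 for Erg, 0.35 for Vcam1, -0.06 for Pdgfrb and 0.07 for Vtn. With GC correction it was -0.01 for Pecam1, -0.18 for Bsg, -0.16 for Vwf, -0.02 for Erg, 0.19 for Vcam1, -0.07 for Pdgfrb, -0.21 for Igfbp7 and -0.03 for Myh11. With the replicate block and GC correction together it was -0.18 for Bsg, 0.16 for Vcam1, -0.07 for Pdgfrb, -0.21 for Igfbp7 and -0.10 for Myh11. Leaving out 1 library at a time gave -0.11 to 0.35 for Pecam1, -0.01 to 0.50 for Tie1, -0.35 to 0.11 for Kdr, -0.19 to 0.23 for Bsg, -0.41 to 0.20 for Ly6a, -0.82 to 0.08 for Ocln, -0.52 to 0.32 for Abcb1a, -1.05 to 0.05 for Slco1a4, -0.01 to 0.65 for Vwf, -0.25 to 0.41 for Erg, -0.38 to 0.39 for Vcam1, -0.05 to 0.23 for Pdgfrb, -0.12 to 0.08 for Vtn, -0.08 to 0.30 for Abcc9, -0.03 to 0.18 for Igfbp7, -0.63 to 0.07 for Acta2, -0.69 to 0.05 for Tagln and -0.43 to 0.46 for Myh11. The cause was not tested.

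Of the 99 other vascular genes, 1 was called in the reported fit, and in alternatives added after seeing the data 2 with DESeq2, 3 with limma-voom and library weights and 0 to 4 when 1 library was left out. Over all genes, 85 (0.656%) were called in the reported fit and 202 (1.3%) with DESeq2. Without WT 3, 387 (2.89%) were called, and 410 (3.17%) with limma-voom and library weights. Same-numbered libraries of both genotypes had deviations that correlated at 0.0937, 0.0694 and 0.177. The labels and methods name no pairs, so the reported fit has no block, and a fit with the replicate number as block was run beside it. With the replicate block 0 members and 2 other vascular genes were called, Tgfbr2 and Tgfb1 (adjusted p of Tgfb1 0.0221 in edgeR). With block and GC correction 2 were likewise called (0.0186). Each library correlated best with the library of its own number in the other genotype. Whether same-numbered libraries were paired was not tested. Depth limits Esam and Higd1b, which the filter on low counts left out of the reported fit.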
